A study of Mus musculus with 10 samples.

Results

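Dense clusters of MyoD binding are stretches of the genome where many MyoD peaks lie close together. They were chosen by sorting the deposited MyoD peaks by position, chaining neighbours whose gap was at most 12.5 kb, and keeping chains of 6 or more peaks. The rule found 664 chains with 5026 member peaks, which are 11.2% of the 45015 MyoD peaks. A further 23168 peaks (51.5%) lay in 8799 chains of 2 to 5 peaks, and 16821 peaks (37.4%) were single, with no other MyoD peak within the gap. The rule used only the positions in the MyoD list, so the number, length and spacing of the chains and the coverage of the same peaks are given as a description, with no test.

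MyoD and Myf5 are related basic helix-loop-helix factors that bind E-box sequences in DNA and can drive fibroblasts into the skeletal muscle lineage. Acetylation of histone H4 (H4Ac) is a mark of open, active chromatin, and enhancers of lineage genes often carry several binding sites of a lineage factor close together. A gap limit of this size is commonly used in the field to join neighbouring enhancers into one domain. MyoD, at many of its sites, is known to recruit histone acetyltransferases.

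The cells were M&M MEFs, mouse embryonic fibroblasts of the genotype MyoD-/-; Myf5-/-, given MyoD, Myf5 or GFP by lentivirus in the presence of polybrene. Each population spent 24 h in growth medium from the time of infection and then 20 h in differentiation medium before harvest. MyoD peaks come from the cells with MyoD, Myf5 peaks from the cells with Myf5, and 1 H4Ac list comes from each population (MyoD, Myf5 and GFP). The same MyoD and Myf5 antibodies were also used in the cells with GFP, as 2 mock lists. The factors came from a virus in cells that lack both genes, so binding reflects introduced protein and not an endogenous level. Each factor list covers 2 replicates together, and every other group is 1 list, so no difference between groups has a replicate check and no p-value is given. Sequencing depth is unknown from these lists. The files hold no RNA, so the identity of the cells was not checked against marker genes. Positions are read as mm9, for which no genome or annotation was used here, so chains are named by position only and without genes.

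Most chains were small. The lowest size, 6 peaks, was held by 271 chains, 155 chains held 7, 87 held 8 and 54 held 9, while 97 chains held 10 or more and the largest held 19. The median chain spanned 33045 bp, with a range of 6619 to 97466 bp, and all chains together covered 23.9 Mb. Members lay at a median of 2.12 peaks per 10 kb of chain, and the median gap between neighbours was 3792 bp. Of the 4362 gaps, 1420 were under 2000 bp. The tightest chain, singled out after its values were seen, was chr7:52894712-52901330, where 6 peaks lay in 6619 bp (9.06 per 10 kb). None of its peaks met an H4Ac peak in any list. Just inside the size limit, the 271 chains of 6 peaks had a median MyoD coverage of 54 and an H4Ac peak from the cells with MyoD at 20.7% of their peaks. Just outside it, the 517 chains of 5 had a median coverage of 53 and such a peak at 21.8%. Values on both sides of the limit were thus close.

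Chains were unevenly spread over the chromosomes. Chromosome 19 had the highest share of its MyoD peaks in chains, 16.7% of 1285, followed by chromosome 12 with 15.7% of 2018 and chromosome 1 with 14.9% of 3473. Chromosome 4 had 5.64% of 2270 and chromosome 3 had 6.04% of 2450, the lowest among the autosomes. The X chromosome had 1 chain, chrX:70711923-70730689, with 6 of its 823 MyoD peaks (0.729%) and no H4Ac peak. Some chains were themselves close together: 56 neighbouring pairs of chains were under 50 kb apart.

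Members were somewhat stronger than single peaks in the list that chose them. The maximum coverage of a peak, the authors' measure of peak height, had a median of 55 in members (quartiles 38 and 101) and 46 in single peaks (35 and 75). Members were also wider, with a median of 730 bp against 642 bp in single peaks. When all MyoD peaks were split into 5 equal classes of coverage, the strongest class held 26.1% of members and 16.7% of single peaks. The weakest class held 16.0% of members and 22.5% of single peaks. The control coverage at these peaks had a median of 5 in members and 5 in single peaks.

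Coverage was uneven within a chain. The strongest member of a chain had a median coverage of 193.5 (range 43 to 1678) and took a median of 31.8% of the coverage summed over the chain. Ranked by coverage, members 2, 3, 4, 5 and 6 of a chain had medians of 113, 75, 57, 45 and 36. The typical member stood at 2.0 times its calling cutoff. At least 1 member in the strongest class was present in 579 of 664 chains, 198 chains held 3 or more, and 85 held none.

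Members lay in more GC-rich sequence. The authors assigned each peak to 1 of 5 GC bins, and called it against a coverage cutoff for that bin. The bin of at most 40% GC held 3.88% of members and 22.7% of single peaks, while the bin of 50 to 55% GC held 27.4% of members and 8.58% of single peaks. Above 55% GC lay 5.39% of members and 1.23% of single peaks. GC content and coverage both move with membership, so each comparison with single peaks is also given after weighting the single peaks to the members' GC bins and coverage classes. This weighting was chosen after seeing the data.

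Nearly every member was also a Myf5 peak in the cells with Myf5. A Myf5 peak overlapped 4967 members, 98.8% (exact 95% binomial interval 98.5 to 99.1), and 96.3% of single peaks (96.0 to 96.5), against 97.5% of all MyoD peaks. Such intervals describe counting error alone, and neighbours within a chain share their surroundings. The difference, 2.57 percentage points (2.14 to 2.97), was 0.755 points (0.362 to 1.09) after weighting by GC and coverage. At least 1 member without a Myf5 peak was present in 55 chains (8.28%), against 4.96% of all chains of 2 or more peaks, which have fewer members that could lack one. The 59 members with no Myf5 peak were weak, with a median MyoD coverage of 32 and a maximum of 89. Single peaks went the same way: a Myf5 peak was at 90.3% of those in the weakest coverage class and 99.8% in the strongest. All 664 strongest members met a Myf5 peak.

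Myf5 coverage followed the same order inside the chains. Within the Myf5 list, the tallest Myf5 peak at each MyoD peak had a median coverage of 135 over members and 103 over single peaks. The median percentile of these tallest peaks in that list was 81.3 over members and 74.3 over single peaks. At members of rank 1 to 6 by MyoD coverage, the median Myf5 coverage was 433, 247, 171, 128, 106 and 84. The spans held 6081 Myf5 peaks, of which 4710 met a member and 1371 met no MyoD peak. Of the 664 chains, 543 had at least 1 such extra Myf5 peak. The extra peaks were low, with a median coverage of 41 and a maximum of 179. Myf5 peaks at members, each counted once, had a median of 128. Myf5 peaks outside the chains that met no MyoD peak had a similar median of 39.

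Few mock peaks lay in these regions. In cells with GFP, the MyoD antibody gave 2 of its 942 mock peaks inside the chains and the Myf5 antibody gave 1 of its 1359. The Myf5 mock peak met 1 member, which was 1 of the 59 without a Myf5 peak. Among the 16821 single peaks, 33 met a Myf5 mock peak, and all 33 were without a Myf5 peak. Whether the factor lists had been cleared of mock regions is not given in the sources used here. These counts therefore do not measure how specific the antibodies were in the chains.

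The largest chain, chr8:122727662-122825127, shows this layout. It held 19 MyoD peaks over 97466 bp, with coverage between 30 and 301, and all 19 met a Myf5 peak. Coverage at its strongest member, chr8:122789420-122790088, was 301 for MyoD and 582 for Myf5. At its weakest, chr8:122727662-122728387, it was 30 for MyoD and 37 for Myf5. The span held 2 H4Ac peaks in cells with MyoD, 1 with Myf5 and 2 with GFP, so a long row of factor peaks carried few acetylated positions. The only member acetylated in all 3 populations was chr8:122748429-122750282, where H4Ac reached 47 in cells with MyoD, 37 with Myf5 and 47 with GFP.

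**Figure D1:**
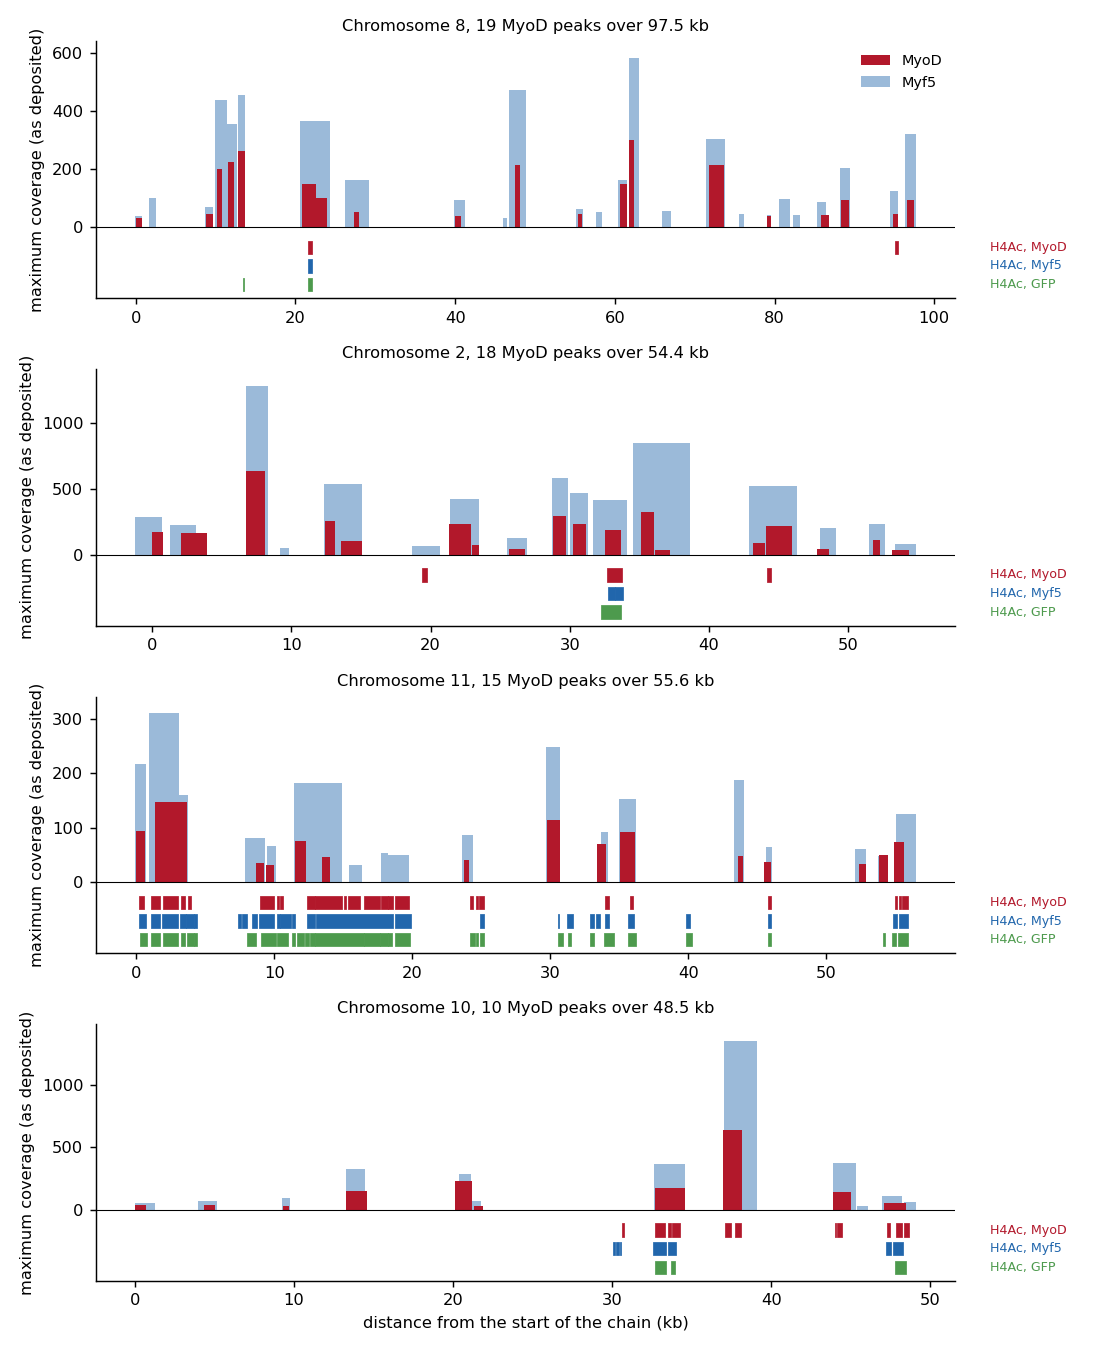
Maps of 4 chains, with distance from the chain's start in kb on the x axis and the deposited maximum coverage on the y axis. Red bars are MyoD peaks and pale blue bars Myf5 peaks, each as wide as the peak, and blocks under the line are H4Ac peaks with MyoD, Myf5 and GFP, at the width of each H4Ac peak. The chain on chromosome 8 has 2, 1 and 2 H4Ac peaks, while that on chromosome 11 has 25, 27 and 31.

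Members carried called H4Ac peaks more often than single peaks, in the cells with MyoD, in those with Myf5 and in those with GFP, which contain neither factor. H4Ac from the cells with MyoD overlapped 1096 members, 21.8% (20.7 to 23.0), and 16.4% of single peaks (15.8 to 16.9), against 18.6% of all MyoD peaks. H4Ac from the cells with Myf5 overlapped 866 members, 17.2% (16.2 to 18.3), and 13.5% of single peaks (13.0 to 14.0), against 15.1% of all. H4Ac from the cells with GFP overlapped 857 members, 17.1% (16.0 to 18.1), and 12.6% of single peaks (12.1 to 13.2), against 14.4% of all. A peak missing from a list is one below that list's cutoff, and the lists do not show that the mark is absent there.

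Those differences shrank when GC content and peak strength were matched. The difference between members and single peaks was 5.43 points (4.17 to 6.72) with MyoD, 3.75 points (2.60 to 4.93) with Myf5 and 4.41 points (3.27 to 5.58) with GFP. With whole chains as the unit of counting, the interval with MyoD widened to 3.83 to 7.03 points. After weighting single peaks to the members' GC bins and coverage classes, the differences were 1.02 points (-0.257 to 2.33) with MyoD, 0.902 points (-0.266 to 2.10) with Myf5 and 0.295 points (-0.872 to 1.49) with GFP. All 3 intervals then include 0.

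The height of the H4Ac peaks did not separate members from single peaks. Where an H4Ac peak was present, its median coverage was 35 at members and 35 at single peaks with MyoD. It was 44 at members and 41 at single peaks with Myf5, and 43 at members and 44 at single peaks with GFP.

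Acetylation called with MyoD and not with GFP was somewhat more common at members than at single peaks, also after weighting. Of the members, 359 (7.14%, 6.45 to 7.89) had an H4Ac peak with MyoD and none with GFP, against 5.26% of single peaks (4.92 to 5.60) and 5.99% of all MyoD peaks. The difference of 1.89 points (1.12 to 2.70) was 1.18 points (0.407 to 2.00) after weighting by GC and coverage. The reverse, a peak with GFP and none with MyoD, was found at 120 members (2.39%), 1.52% of single peaks and 1.78% of all. That difference of 0.866 points (0.432 to 1.36) is larger as a ratio, 1.57 against 1.36 for MyoD and not GFP, and was 0.452 points (0.0045 to 0.95) after weighting. For Myf5 and not GFP the interval of the difference included 0 with the full H4Ac lists. H4Ac with Myf5 and not GFP was at 171 members, 3.4% (2.92 to 3.94), 3.34% of single peaks (3.07 to 3.62) and 3.54% of all, and the difference was 0.0672 points (-0.478 to 0.665). With only H4Ac peaks of at least 1.5 times their cutoff, that difference was 0.606 points (0.163 to 1.11), an interval that left out 0. H4Ac with GFP and not Myf5 was at 162 members (3.22%), 2.50% of single peaks and 2.85% of all. Its difference of 0.726 points (0.210 to 1.30) was -0.458 points (-0.998 to 0.136) after weighting. The weighted intervals take the single peaks at their full number. With the effective number that the weights leave, 8733, the interval for MyoD and not GFP was 0.323 to 2.06 points and that for GFP and not MyoD was -0.044 to 0.985. Peak width, and strength within a class, were not matched. In the strongest class, members had a median width of 960 bp against 866 bp in single peaks, and a median coverage of 157 against 141.

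Sorted by the 3 lists at once, the most common state of an acetylated member was H4Ac in all populations. That held for 655 members (13.0%), 9.67% of single peaks and 10.9% of all. H4Ac with MyoD only was at 240 members (4.78%), 3.12% of single peaks and 3.71% of all. H4Ac with both factors and not GFP was at 119 members (2.37%), 2.13% of single peaks and 2.28% of all. Myf5 only was at 52 members (1.03%), 1.20% of single peaks and 1.26% of all, and GFP only was at 80 members (1.59%), 1.05% of single peaks and 1.2% of all. H4Ac with MyoD and GFP and not Myf5 was at 82 members (1.63%), 1.45% of single peaks and 1.66% of all. H4Ac with Myf5 and GFP and not MyoD was at 40 members (0.796%), 0.476% of single peaks and 0.582% of all. Its ratio of members to single peaks was 1.67, with a difference of 0.320 points (0.0797 to 0.621). After weighting, with the effective number, the intervals of these patterns that left out 0 were 0.299 to 1.73 points for MyoD only, and -1.15 to -0.204 points for MyoD and GFP without Myf5, where members were lower. For GFP only the weighted difference was 0.230 points (-0.180 to 0.674), and for Myf5 and GFP without MyoD 0.221 points (-0.0548 to 0.541). Any H4Ac peak was at 1268 members (25.2%), 19.1% of single peaks and 21.6% of all.

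Members and single peaks were furthest apart in the lowest GC bin. Among peaks of at most 40% GC, H4Ac with MyoD was at 22.6% of the 195 members (16.9 to 29.1) and 8.76% of the 3823 single peaks (7.89 to 9.70). In the same bin, H4Ac with GFP was at 13.8% of members (9.33 to 19.5) and 4.92% of single peaks (4.25 to 5.65). Between 45 and 50% GC the order was the other way, at 21.7% of members and 22.8% of single peaks with MyoD, and 16.7% and 19.2% with GFP. Across the 5 bins, members varied only between 21.1 and 22.6% with MyoD, while single peaks varied between 8.76 and 22.8%. H4Ac with MyoD and not GFP was at 12.3% of members and 4.50% of single peaks in the lowest bin, and at 5.17% of members and 2.90% of single peaks above 55% GC. Other patterns were also more common at members in the lowest bin. There, H4Ac with Myf5 and not GFP was at 8.21% of members (4.76 to 13.0) and 3.64% of single peaks (3.07 to 4.28). H4Ac with GFP and not MyoD was at 3.59% of members and 0.654% of single peaks in that bin.

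**Figure D2:**
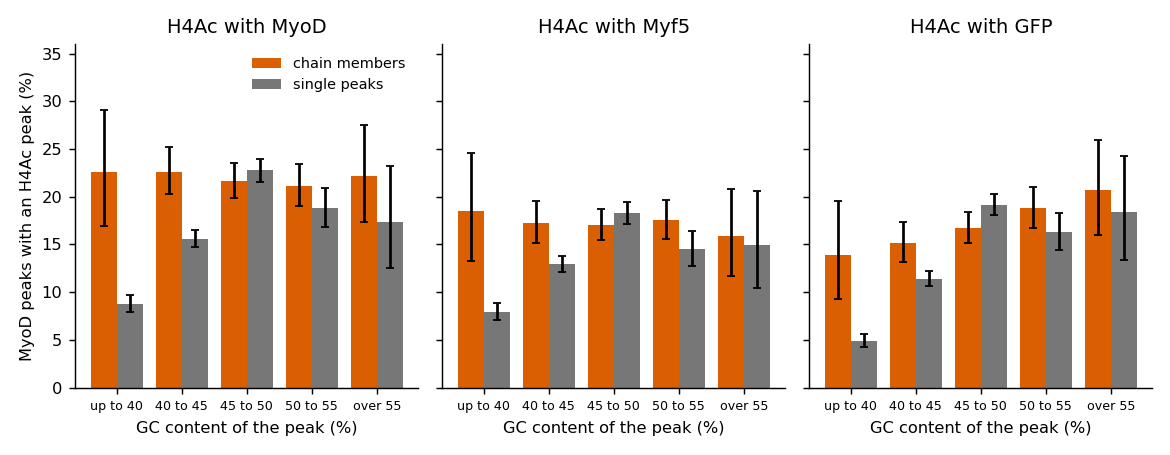
Share of MyoD peaks with an H4Ac peak (y axis, %) in 5 bins of GC content (x axis, %), for chain members and single peaks, 1 panel per H4Ac list. Bars are shares and lines their exact 95% intervals, and the gap is widest in the lowest bin, at 22.6% of members and 8.76% of single peaks with MyoD.

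Strength classes gave a related picture. In the weakest class, H4Ac with MyoD was at 15.2% of members (12.8 to 17.9) and 10.5% of single peaks (9.56 to 11.5). In the strongest class it was at 34.1% of members (31.6 to 36.8) and 31% of single peaks (29.3 to 32.7), so intervals overlapped there and not in the weakest class. With GFP, the strongest class had H4Ac at 21.5% of members and 19.1% of single peaks. H4Ac with MyoD and not GFP was at 14.5% of members (12.6 to 16.5) and 13.2% of single peaks (11.9 to 14.5) of the strongest class.

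H4Ac shares did not climb evenly with the number of peaks in a chain. In chains of 1, 2, 3, 4 and 5 peaks, H4Ac with MyoD was at 16.4, 18.7, 19.8, 19.4 and 21.8% of peaks. In chains of 6 to 7, 8 to 9 and over 9 peaks it was at 20.5% (19.0 to 22.1), 25.4% (22.9 to 28.0) and 21.2% (18.8 to 23.7). With GFP the shares for the same 3 sizes were 15.2, 20.0 and 18.4%. The interval of chains of over 9 peaks thus overlapped that of chains of 5 peaks, which was 20.2 to 23.4% with MyoD.

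**Figure D3:**
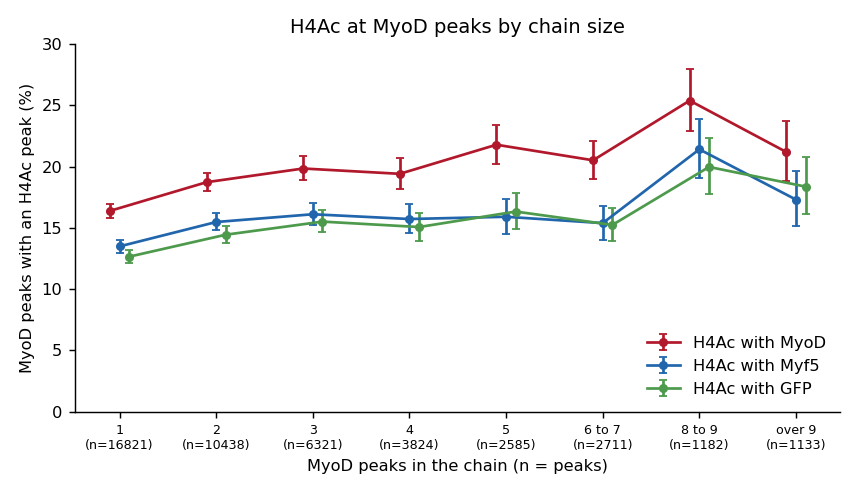
Share of MyoD peaks with an H4Ac peak (y axis, %) by the number of MyoD peaks in their chain (x axis), for the H4Ac lists with MyoD, Myf5 and GFP. Points are shares and bars exact 95% intervals: with MyoD the share is 16.4% in single peaks, 25.4% in chains of 8 to 9 and 21.2% in chains of over 9.

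Within a chain, H4Ac with MyoD was found most often at the strongest member. It was at 38.7% of the 664 strongest members (35.0 to 42.5), 27.7% of those of rank 2, 19.6% at rank 3 and 15.1% at rank 6 (12.4 to 18.0). With Myf5 the strongest members had 25.5% (22.2 to 28.9) and those of rank 6 had 14.6%. With GFP the strongest had 22.4% (19.3 to 25.8) and those of rank 6 had 14.2%. H4Ac with MyoD and not GFP was at 118 strongest members, 17.8% (14.9 to 20.9), and at 3.01% of members of rank 6 (1.85 to 4.61). H4Ac with Myf5 and not GFP was at 44 strongest members, 6.63% (4.86 to 8.79), and at 2.41% of members of rank 6 (1.38 to 3.88). The rank of a member is set by MyoD coverage. Single peaks of the strongest class, with a median coverage of 141 against 193.5 for the strongest members, had H4Ac with MyoD at 31% (29.3 to 32.7) and H4Ac with MyoD and not GFP at 13.2% (11.9 to 14.5). The strongest members lay above both intervals, and the part of their higher coverage was not tested. The place in the chain made a smaller difference: H4Ac with MyoD was at 20.1% of first and last members (18.0 to 22.4) and 22.4% of inner ones (21.1 to 23.8).

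**Figure D4:**
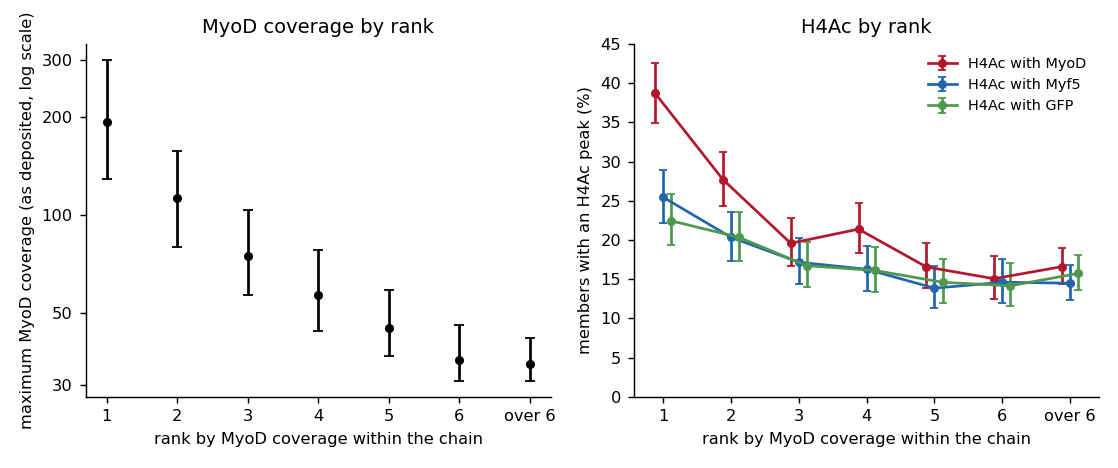
Members ranked by MyoD coverage within their chain (x axis), with the deposited maximum coverage (left, log scale, median and quartiles) and the share with an H4Ac peak (right, %, exact 95% intervals) for the lists with MyoD, Myf5 and GFP. Median coverage is 193.5 at rank 1 and 36 at rank 6, and the share with H4Ac with MyoD is 38.7% and 15.1%.

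Chains with acetylation called with MyoD and not GFP most often had it at 1 member. No member had it in 400 chains, 1 member in 189, 2 in 58 and 3 or more in 17, with a maximum of 4. The chains with 2 or more held 170 of the 359 such members. Only 7.14% of members had this state, so low counts per chain are built in, and grouping within chains was not tested. Neighbouring members shared H4Ac with MyoD more often when they were close. Among neighbouring pairs with such a peak at either member, both had one in 31.7% of 536 pairs (27.8 to 35.8) under 2000 bp apart, 18.5% of 530 pairs (15.3 to 22.1) at 2000 to 6000 bp and 14.5% of 516 pairs (11.6 to 17.9) over 6000 bp apart. H4Ac with GFP, in cells with neither factor, also fell with distance, at 30.3% of 423 pairs, 15.6% of 403 and 12.4% of 428. For H4Ac with MyoD and not GFP, the same shares were 11.8% of 203 pairs, 6.91% of 217 and 4.73% of 169. Close members can meet the same H4Ac peak.

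Counted over whole spans, the chains were not richer in H4Ac peaks than shorter chains. They held 2356 H4Ac peaks with MyoD, 1723 with Myf5 and 1811 with GFP. Per 10 kb of span this was 0.986 (0.946 to 1.03) with MyoD, 0.721 (0.687 to 0.756) with Myf5 and 0.758 (0.723 to 0.793) with GFP. Chains of 2 to 5 peaks had 1.00, 0.749 and 0.748 per 10 kb in the same order of lists. A span runs from the first peak to the last, so shorter chains have fewer gaps per peak. Of the H4Ac peaks with MyoD in the spans of the dense chains, 64.9% met a MyoD peak. These densities are therefore not matched for the length of the gaps. At least 1 H4Ac peak with MyoD was present in 545 chains (82.1%), against 47.0% of all chains of 2 or more peaks, 1 with Myf5 in 469 (70.6%), against 40.5%, and 1 with GFP in 478 (72.0%), against 39.3%. Chain length differs with it: the median span was 33045 bp here, against 8776 bp in chains of 2 to 5 peaks.

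Windows of equal length also hold more peaks around members, and the rule builds this in, because a single peak has no other MyoD peak in its window while members have neighbours. In a window of 12.5 kb centred on the peak, an H4Ac peak with MyoD was present at 49.8% of members and 26.5% of single peaks. With Myf5 it was at 42% of members and 24.2% of single peaks, and with GFP at 42.9% of members and 23.1% of single peaks. These shares are a description, and nothing is drawn from them.

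Chains with more H4Ac peaks with MyoD than with GFP outnumbered those with fewer, in a ratio close to that of shorter chains. With MyoD against GFP, 322 chains (48.5%) held more H4Ac peaks, against a background of 25.3% of chains of 2 or more peaks, 239 held the same number, and 103 (15.5%) held fewer, against 8.42%. The ratio of more to fewer was 3.13 here and 2.98 in chains of 2 to 5 peaks. With Myf5 against GFP, 167 chains (25.2%) held more, against a background of 14.3%, 299 held the same number, and 198 (29.8%) held fewer, against 14.5%. Longer chains have more room for a difference either way. That ratio was 0.843 here and 1.01 in chains of 2 to 5 peaks. The list with MyoD has 36864 peaks, that with Myf5 32041 and that with GFP 31120. With all lists reduced to 31120 peaks, 269 chains held more and 127 fewer with MyoD than with GFP, and 163 held more and 199 fewer with Myf5.

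**Figure D5:**
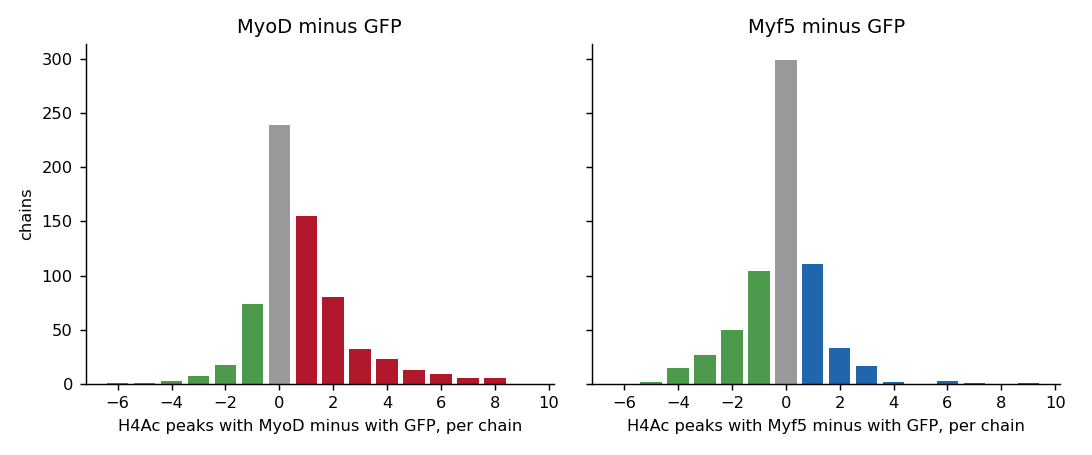
Number of chains (y axis) by the difference in H4Ac peaks between a factor and GFP (x axis, peaks per chain), for MyoD on the left and Myf5 on the right. Bars right of 0 are chains with more peaks than with GFP: 322 with MyoD and 167 with Myf5, against 103 and 198 chains left of 0.

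The length covered by H4Ac did not follow the count of H4Ac peaks. H4Ac covered 885.6 kb of the chains with MyoD (3.70% of their length), 941.8 kb with Myf5 (3.94%) and 880.0 kb with GFP (3.68%). Peaks inside the chains were narrowest in the list with MyoD, with a median width of 308.5 bp, against 461 bp with Myf5 and 408 bp with GFP. Over the genome, counted from 3 Mb to the last MyoD peak of each chromosome, H4Ac covered 0.471% with MyoD, 0.578% with Myf5 and 0.506% with GFP. Relative to that, the chains were covered 7.86 times as densely with MyoD, 6.82 times with Myf5 and 7.27 times with GFP. Joined across the 3 lists, the chains held 2633 acetylated regions. Of these, 1120 (42.5%) were called in all 3 populations, against 40.8% of such regions in the genome. With MyoD only, there were 519 (19.7%, 18.2 to 21.3), against 14.0% in the genome. With Myf5 only, there were 218 (8.28%, 7.25 to 9.40), against 13.7%, and with GFP only 253 (9.61%), against 10.5%. With both factors and not GFP, there were 209 (7.94%), against 8.3%. The chains were chosen for MyoD peaks, and 69.2% of the regions called with MyoD only met one, as did 38.1% of those called with Myf5 only and 47.4% of those called with GFP only. The genome is not matched for MyoD binding, and these values are not given for single peaks or shorter chains. Counted by peak, MyoD only was at 240 of the 1268 members with any H4Ac peak and at 525 of the 3213 such single peaks. Myf5 only was at 52 and 202 of them. The differences from the genome are thus not shown to be particular to dense chains.

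The chains with the most peaks differed widely in acetylation. The chain chr2:93265901-93320251 held 18 peaks, 12 of them in the strongest class, and its strongest member, chr2:93272647-93273989, reached 637 for MyoD and 1283 for Myf5. It held 3 H4Ac peaks with MyoD, 2 with Myf5 and 1 with GFP, none of them at its strongest member. The chain chr5:125590979-125653554 held 18 peaks with coverage from 31 to 334, 17 of them with Myf5, and 3, 2 and 4 H4Ac peaks with MyoD, Myf5 and GFP. The chain chr5:104169516-104257225 held 16 peaks and 18, 11 and 13 H4Ac peaks in the same order. Its strongest member, chr5:104207161-104207987, had a MyoD coverage of 450 and its H4Ac reached 179 in cells with MyoD, 129 with Myf5 and 96 with GFP.

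Among the chains of 15 peaks, 2 on chromosome 6 had H4Ac with MyoD alone. In chr6:72046981-72115607 the strongest member reached 323 for MyoD and 780 for Myf5 and had an H4Ac peak of coverage 28 with MyoD, and the last member had an H4Ac peak of coverage 22. No H4Ac peak with Myf5 or GFP lay in that span. In chr6:91059450-91115963, 1 member, chr6:91105701-91107568, had H4Ac with MyoD at a coverage of 31, and it was also the strongest member at 253. The lowest H4Ac coverage called at any member with MyoD was 19. The chain of 15 peaks with the most H4Ac was chr11:86381945-86437577, with 25 peaks with MyoD, 27 with Myf5 and 31 with GFP. Its MyoD coverage reached 148, and 9 of its members met H4Ac with MyoD, 10 with Myf5 and 12 with GFP.

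Of the other chains among the 10 largest, chr2:29478664-29540154 held 15 MyoD peaks and 2, 3 and 2 H4Ac peaks with MyoD, Myf5 and GFP. The chain chr11:32257610-32305678 held 15 MyoD peaks and 4, 3 and 3 H4Ac peaks. The chain chr19:47928117-48012975 held 14 MyoD peaks, with coverage of at most 112, and 18, 14 and 17 H4Ac peaks. Peak number in a chain and acetylation thus varied separately among the largest chains.

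The chains with the tallest MyoD peaks also differed. The highest coverage, 1678, was at chr1:88330973-88332744 in the chain of 9 peaks chr1:88324551-88367780, with a Myf5 coverage of 1441. Its H4Ac coverage reached 224 in cells with MyoD, 256 with Myf5 and 242 with GFP, so it lay in chromatin acetylated without either factor. The next, 1217, was at chr1:172585401-172586528 in chr1:172562423-172604946, with a Myf5 coverage of 2985 and no H4Ac peak in any list. In chr1:135779240-135797850, the tallest peak reached 890 for MyoD and 1576 for Myf5, and no member met H4Ac. The chain chr10:128346428-128375315, with a maximum of 954, held 11, 7 and 7 H4Ac peaks with MyoD, Myf5 and GFP, and chr3:144301004-144333127, with a maximum of 879, held 3, 1 and 2.

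The largest surplus of H4Ac peaks with MyoD over GFP was 8 peaks, and the 5 chains with it are given as examples chosen for that difference. In chr10:31279263-31327742 there were 10 MyoD peaks, and 11 H4Ac peaks with MyoD, 7 with Myf5 and 3 with GFP. Its strongest member, chr10:31316222-31317460, reached 638 for MyoD and 1350 for Myf5. H4Ac at that member reached 44 in cells with MyoD, and no H4Ac peak was called there with Myf5 or GFP. A neighbour, chr10:31311965-31313836, was acetylated in every population, where H4Ac reached 58 in cells with MyoD, 60 with Myf5 and 42 with GFP. In chr12:74324732-74372948, with 11, 4 and 3 H4Ac peaks with MyoD, Myf5 and GFP, the member of coverage 506 and that of 473 had H4Ac with MyoD alone, at 47 and 26. In chr9:116219812-116252521, with 10, 4 and 2 H4Ac peaks, 3 of its 6 members had H4Ac with both factors and not with GFP. The others named for this surplus were chr2:125859607-125897071, with 12, 13 and 4 H4Ac peaks, and chr10:119829273-119863692, with 37, 30 and 29.

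The largest surplus with Myf5 over GFP, 9 peaks, was in chr2:125859607-125897071. It was followed by chr15:102986080-103071899, with 11 H4Ac peaks with MyoD, 16 with Myf5 and 9 with GFP. In chr18:5802173-5838754, with 6, 8 and 2 H4Ac peaks in that order, the strongest member had a MyoD coverage of 458, and H4Ac of 46 with MyoD and 31 with Myf5 but no peak with GFP. The last of these chains were chr19:38084844-38152992, with 13, 17 and 11, and chr13:49640977-49684476, with 10, 13 and 7.

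The largest deficit with MyoD against GFP was 6 peaks, in the chain on chromosome 11 described above. It was followed by chr18:56867755-56896295, with 4 H4Ac peaks with MyoD, 4 with Myf5 and 9 with GFP, and chr1:43169834-43221323, with 9, 9 and 13. The others were chr12:71604941-71646678, with 5, 6 and 9, and chr9:102619337-102640209, with 3, 4 and 7. In these 5 chains the counts with Myf5 were also below those with GFP. The same counts with GFP entered the choice of these chains and favour a deficit, so nothing is drawn from this.

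No H4Ac peak in any list lay in 95 chains (14.3%), while 435 chains (65.5%) had H4Ac peaks in all 3 lists. The same shares are not given for shorter chains. An H4Ac peak with MyoD, whatever the other lists held, was present in 82.1% of these chains and in 47.0% of all chains of 2 or more peaks. A lack of H4Ac is therefore not a trait of the dense chains. The largest without was chr6:72150414-72210574, the next chain after the one on chromosome 6 at 72046981, with 14 MyoD peaks. Of its members, 3 stood out with MyoD coverage of 334, 389 and 371, and their Myf5 peaks had 443, 704 and 676. The chain chr10:80868301-80896146 held 12 MyoD peaks, all of them above 55% GC, with MyoD coverage from 36 to 87 and Myf5 coverage from 86 to 263. The chain chr2:103377643-103441017 held 11 MyoD peaks with a maximum coverage of 205. Rows of MyoD and Myf5 peaks were thus also found where none of the 3 populations had a called H4Ac peak.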

How the data were processed

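Of 10 samples, 7 with peak lists were used, and 3 input samples entered no comparison. The submitters' processing notes list CASAVA 1.8.2, BWA 0.7.5 and, with no role stated, mm9 and hg19. Which program called the peaks, and how 2 replicates became 1 list, is not given in the sources used here. Per the file headers, the signal deposited for a peak is its maximum coverage, and the cutoff, also from the authors, is the coverage a peak of its GC bin had to reach. The headers name no scaling, so coverage was compared within a list only. Positions were read as mm9, because peaks reach 197068167 on chromosome 1, where the last gene of GRCm38 ends at 195291439. Sequences and gene names were not used here for that reason.

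MyoD peaks were chained with Python 3.11.15, numpy 2.4.6 and pandas 2.3.3. An overlap needed 1 shared bp or more. Shares have exact Clopper-Pearson intervals at a level of 95% (scipy 1.17.1), differences have Newcombe intervals, and chain-level intervals treat chains as the unit. The chaining and overlap steps were tested on simulated data. Named chains are the 10 with most peaks, the 5 with highest MyoD coverage, the 5 at each end of MyoD minus GFP H4Ac peaks, the 5 highest for Myf5 minus GFP, and the 3 largest without H4Ac. The members, lists and rules were chosen with earlier results of these data known. Alternatives changed the gap, the chain size, the peaks compared, the coverage floor, list length, overlap and weighting by GC and coverage.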

Additional observations from a re-analysis of the deposited data

How the results depend on the processing

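Of 12 alternatives, 3 were added after seeing the data: weighting by GC, weighting by GC and coverage, and MyoD peaks trimmed to 500 bp. The weighting of the other H4Ac patterns and its effective number were also added then. Values below are differences of members minus single peaks in percentage points, ratios of median MyoD coverage (1.20 as reported), or H4Ac peaks per 10 kb of span. H4Ac values are in the order MyoD, Myf5, GFP. With a gap of 10000 bp there were 423 chains, a coverage ratio of 1.17 and 1.12, 0.817 and 0.863 H4Ac peaks per 10 kb. With a gap of 20000 bp there were 1271 chains, a ratio of 1.15, a Myf5 difference of 3.19 and 0.753, 0.564 and 0.594 per 10 kb. With 8 or more peaks there were 238 chains, H4Ac differences of 6.95, 5.91 and 6.53 and 1.07, 0.817 and 0.839 per 10 kb. Against every MyoD peak outside the chains, the ratio was 1.12, the Myf5 difference 1.5 and the H4Ac differences 3.63, 2.44 and 3.02. With MyoD peaks of at least 1.5 times their cutoff, there were 166 chains, a ratio of 1.15, a Myf5 difference of 0.952, H4Ac differences of 2.82 (0.403 to 5.40), 0.666 (-1.45 to 2.99) and 2.06 (-0.0651 to 4.38), one of -0.779 (-1.72 to 0.437) for Myf5 and not GFP, and 1.08 per 10 kb with MyoD and 0.802 with GFP. With H4Ac peaks of at least 1.5 times their cutoff, the differences were 2.78, 2.49 and 2.17, and 0.419, 0.316 and 0.343 were found per 10 kb. At that floor the difference for MyoD and not GFP was 0.938 (0.385 to 1.55). That for Myf5 and not GFP was 0.606 (0.163 to 1.11), an interval that left out 0. With H4Ac lists of equal length, H4Ac with MyoD was 0.883 per 10 kb. Weighted by GC, the ratio was 1.15, the Myf5 difference 1.11 and the H4Ac differences 2.60, 1.8 and 1.05 (-0.112 to 2.24 with GFP). Weighted by GC and coverage, they were 0.755 for Myf5 and 1.02, 0.902 and 0.295 for H4Ac. The differences for Myf5 and for the 3 H4Ac lists were above 0 under each alternative run for them, but the interval included 0 for H4Ac with Myf5 and with GFP at the MyoD floor, with GFP under the GC weighting, and for all 3 lists under the weighting by GC and coverage, and that for MyoD and not GFP moved by less than its interval in all but the H4Ac floor. No paired analysis was possible because each group has 1 list. Depth is unknown, weak peaks near the cutoffs decide many counts, and intervals do not cover the spread between cultures. Differences between H4Ac lists were not tested against replicate spread.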
